A study of Mus musculus with 21 samples.

Results

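The genes described here are the Wnt ligands, their Frizzled receptors, the secreted antagonists of the Sfrp, Dkk, Frzb and Wif1 kinds, and the R-spondins. All symbols of these name patterns in the gene list were taken, which gave 43 of 32285 genes: 19 Wnt ligands, 10 Frizzled receptors, 10 antagonists and 4 R-spondins. They were followed in single cells of a mouse melanoma model, in which fragments of the MT-ret melanoma were transplanted under the skin of mT/mG mice, the primary tumor was resected and lung metastases formed later. The hosts were young adult mice of both sexes whose own cells carry the red fluorescent protein tdTomato, while the transplanted malignant melanoma (MM) cells do not, so that the tumor microenvironment (TME) could be sorted apart from MM cells. By their clusters, 2037 of 5166 cells of lung metastasis TME 5 (39.4%) were MM-like, against at most 3.0% in the other TME libraries. A further 834 of its cells (16.1%) lay in an unnamed cluster led by Col2a1 and Cspg4. The MM list was the only marker list of which this cluster raised at least 3 genes (3 of 10). Unnamed cells also made up 321 of 1036 cells of lung metastasis TME 6 (31.0%) and 11.9% of primary tumor TME 5. They were 0.5% to 6.2% of the other TME libraries and 0.2% to 18.8% of the libraries of sorted MM cells. The libraries are unchallenged lung (replicates 1, 4, 5 and 6), the TME of lung metastases and the TME of primary tumors (replicates 1 to 3, which are named together and treated as 1 library, and replicates 4, 5 and 6 in either tissue), and sorted MM cells of lung metastases and of primary tumors (replicates 4 and 5 in either). The methods name sorts of living tdTomato+ cells with or without removal of CD45+ leukocytes but do not tie a sort to each library. By the methods primary tumors grew under the skin, while the tissue label of every sample reads lung. The deposited library names of the primary tumors read skin tumor. If the methods hold, a difference between primary tumor and lung holds the organ as well as the tumor, and these cannot be told apart.

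Wnt proteins are secreted, lipid-modified ligands that bind Frizzled receptors together with the coreceptors Lrp5 and Lrp6. In the canonical branch this stabilizes β-catenin (Ctnnb1), which enters the nucleus, binds TCF/LEF factors and raises target genes such as Axin2 and Nkd1, while ligands such as Wnt5a and Wnt11 are better known for branches that do not use β-catenin. Sfrp proteins, Frzb and Wif1 bind the ligands, Dkk1 and Dkk2 bind the coreceptors, and R-spondins raise receptor levels by removing the ligases Rnf43 and Znrf3 from the membrane. In lung, Wnt signals come mainly from mesenchyme and reach epithelium and endothelium, and Fzd4 is the endothelial receptor for the ligand Norrin as well as for Wnts.

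The promoter windows of the 3 genes on which most of the comparisons turn are given here, a ligand, a receptor and an antagonist. Each runs from 250 bases before to 50 bases after the RefSeq start on GRCm38.p6. Wnt4 lies at chr4:137277385-137277684, Fzd4 at chr7:89404116-89404415 and Dkk2 at chr3:132085042-132085341, all on the plus strand. Capitals mark the core letters of a TCF/LEF site (CTTTG) and a TATA box (TATAAA), both searched on both strands.
Wnt4: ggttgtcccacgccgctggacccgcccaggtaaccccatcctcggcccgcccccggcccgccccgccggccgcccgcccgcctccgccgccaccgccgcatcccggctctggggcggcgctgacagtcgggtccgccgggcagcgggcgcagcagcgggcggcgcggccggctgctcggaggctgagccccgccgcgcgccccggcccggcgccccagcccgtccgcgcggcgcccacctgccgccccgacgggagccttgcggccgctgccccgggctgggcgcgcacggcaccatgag
Fzd4: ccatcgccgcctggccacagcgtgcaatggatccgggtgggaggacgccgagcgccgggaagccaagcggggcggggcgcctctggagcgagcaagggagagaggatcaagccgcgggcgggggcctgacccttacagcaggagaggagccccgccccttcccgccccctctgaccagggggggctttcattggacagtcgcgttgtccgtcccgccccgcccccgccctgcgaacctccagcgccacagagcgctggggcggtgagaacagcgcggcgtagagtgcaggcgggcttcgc
Dkk2: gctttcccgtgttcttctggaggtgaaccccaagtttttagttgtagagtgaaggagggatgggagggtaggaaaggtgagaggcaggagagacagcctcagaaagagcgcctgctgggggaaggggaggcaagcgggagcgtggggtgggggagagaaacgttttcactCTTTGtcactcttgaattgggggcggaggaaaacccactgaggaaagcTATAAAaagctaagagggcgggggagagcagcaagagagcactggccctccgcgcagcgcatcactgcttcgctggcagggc
The Dkk2 window holds CTTTG 80 bases and TATAAA 32 bases before the start. The windows of Wnt4 and Fzd4 hold neither. Of 32851 RefSeq promoter windows of this length, 53.9% hold CTTTG and 13.6% hold TATAAA.

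The counts cover 100359 cells in 16 libraries, each cell counted once, with 303 to 30419 cells and a median of 1203 to 5356 UMIs (unique molecular identifiers, each standing for 1 captured RNA molecule) per cell and library. The lowest medians are those of primary tumor TME replicate 6 (1203), unchallenged lung replicate 6 (1605) and primary tumor MM replicate 4 (1654). Of 24 library names, 5 held the same barcodes and counts as another and were counted once, among them a library labelled sorted MM that was identical to lung metastasis TME 6 and is used only as the latter. The remaining libraries shared at most 1.20% of the barcodes of the smaller one. Several libraries stood apart in subclusters led by markers of another cell type. Of the fibroblast-like cells, 2064 of 2135 in unchallenged lung 6 (96.7%) fell into subclusters led by alveolar macrophage, ciliated, club or leukocyte genes, and 1456 of 2059 in primary tumor 6 (70.7%) into one led by MM genes, against 1.0% to 37.1% in the other libraries compared. Of the endothelial-like cells, such subclusters took 62.7% to 91.8% in primary tumor (mainly fibroblast genes), 8.5% to 98.4% in lung metastasis (mainly MM genes) and 0.2% to 48.9% in unchallenged lung (mainly club genes). Calls are given with and without them. Classes were named from marker lists, with the 43 genes left out of the clustering, and "-like" marks a class so named. The largest MM-like cluster (29373 cells, 27944 of them from primary tumor MM 4) raised only 3 of 10 MM markers, none among its 10 leading genes. It was named in part from its sort. The fibroblast-like class holds 5323 cells and includes alveolar fibroblast-like cells and a cluster led by Meg3, Col1a1 and Rgs5. This cluster was called pericyte or smooth muscle-like from 8 of 10 such markers, but its 10 leading genes hold 5 fibroblast or tumor fibroblast markers (Col1a1, Col1a2, Col3a1, Tnc and Fbn2) and 1 pericyte marker (Rgs5), so it is not given that name here. Over the whole fibroblast-like class, not this cluster alone, the summed level of 9 fibroblast markers lay between 10354 and 38963 CPM (UMIs scaled to a common class total) in each library compared. Of the 3 endothelial classes (general capillary, aerocyte, and venous or Vwf), only the venous or Vwf class held over 6 cells in any primary tumor library.

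The 43 genes were thinly expressed, with 97353 of 328241012 UMIs in all. Wnt ligands gave 14333 UMIs, Frizzled receptors 30107, antagonists 51819 and R-spondins 1094. Dkk3 alone gave 46002 of the antagonist UMIs and Wnt4 alone 9930 of the ligand UMIs, so these totals do not compare the roles. No gene was without a UMI, but 14 had fewer than 50 UMIs in all cells: Wnt1, Wnt3, Wnt3a, Wnt7a, Wnt8a, Wnt8b, Wnt9b, Wnt10a, Fzd10, Dkk1, Dkk4, Sfrp5, Rspo2 and Rspo4. Dkk1, the best known of the Dkk inhibitors, had 8 UMIs in all. Of the 43 genes, 16 had their highest pooled level in fibroblast-like cells. Levels below are CPM within a class. The libraries count 3' ends and gene length does not enter, so the same gene is compared between classes and libraries and no gene is compared with another.

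**Figure D1:**
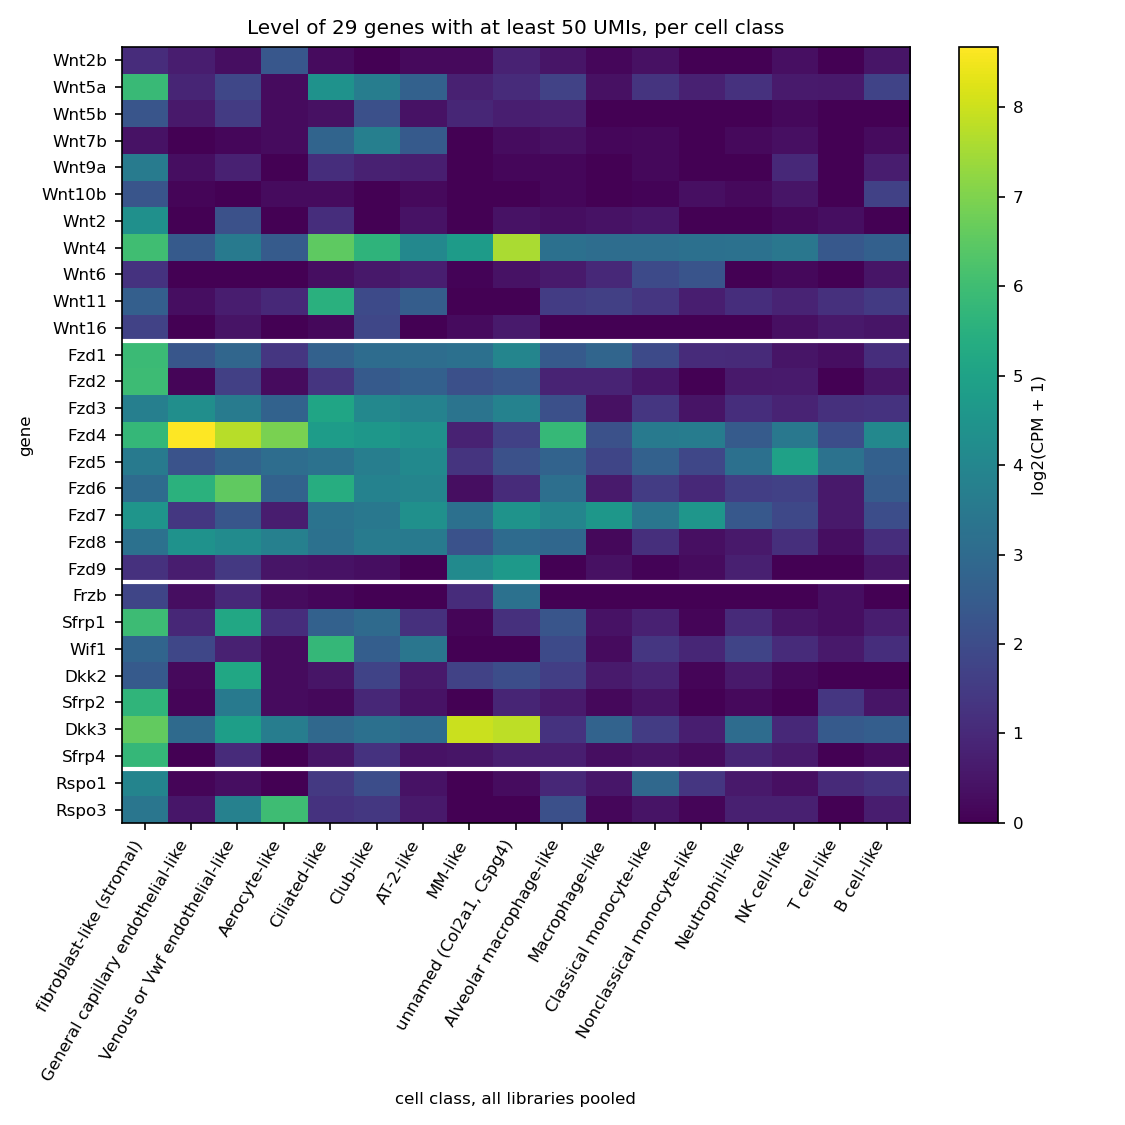
Pooled level of the 29 genes with at least 50 UMIs (rows: ligands, receptors, antagonists and R-spondins, parted by white lines) in 17 cell classes (columns), as log2(CPM + 1). Fzd4 is brightest in endothelial classes (408 CPM in general capillary-like cells), Dkk3 in MM-like cells (250 CPM), and Wif1 and Wnt11 in ciliated-like cells (53.7 and 44.9 CPM).

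The map of pooled levels over classes is described by role. Among ligands, Wnt4, a ligand of both branches, was highest in an unnamed cluster led by Col2a1 and Cspg4 (190 CPM) and then in ciliated-like (90.7), fibroblast-like (63.4), club-like (48.4) and MM-like cells (26.2). These are values pooled over libraries, and the order turned between them: in lung metastasis 5 and 6 fibroblast-like cells (296 and 441 CPM) lay above ciliated-like cells (167 and 221), and in unchallenged lung 5 and 6 (17.9 and 34.1) below them (136 and 75.5). Wnt5a (58.5 CPM), Wnt2 (19.4), Wnt9a (11.3), Wnt10b (3.92) and Wnt5b (3.92) were highest in fibroblast-like cells. Wnt2 is the ligand known for lung specification in the embryo. Wnt11 was highest in ciliated-like cells, at 44.9 CPM against 5.22 in fibroblast-like cells, the next class. Wnt7b, a ligand of lung epithelium, was highest in club-like cells (12.4 CPM), with 5.92 in ciliated-like and 4.46 in AT-2-like cells, the surfactant-producing alveolar type 2 cells. Among the thin ligands, Wnt3a was highest in AT-2-like cells (3.30 CPM), Wnt9b in venous or Vwf-like cells (4.35), Wnt2b in aerocyte-like cells (4.06) and Wnt6 in nonclassical monocyte-like cells (3.79, with 2.84 in classical monocyte-like cells). Wnt16 was highest in a mixed unnamed cluster of 31 cells (3.51 CPM).

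Among receptors, Fzd4 was highest in general capillary-like cells (408 CPM), with 212 in venous or Vwf-like and 121 in aerocyte-like cells. Fzd6, a receptor of planar polarity, was highest in venous or Vwf-like cells (92.9 CPM), with 45.8 in general capillary-like and 41.8 in ciliated-like cells. Fzd8 followed the endothelium as well (20.4 CPM in general capillary-like and 17.1 in venous or Vwf-like cells). Fzd1 (59.1 CPM) and Fzd2 (61.4 CPM) were highest in fibroblast-like cells. Fzd7 was nearly level in macrophage-like (23.3 CPM), nonclassical monocyte-like (22.7) and fibroblast-like cells (22.1). Fzd5 was highest in NK cell-like cells (30.4 CPM), where the libraries with such cells ranged from 25.3 to 43.3 CPM. Fzd3 was highest in ciliated-like cells (33.7 CPM). Fzd9 was highest in the unnamed cluster (24.1 CPM) and in MM-like cells (16.6).

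Among antagonists, Dkk3, a divergent member of its family, was highest in MM-like cells (250 CPM), the unnamed cluster (221) and fibroblast-like cells (94.4). Sfrp1 (60.5 CPM), Sfrp2 (50.5) and Sfrp4 (53.7) were highest in fibroblast-like cells, and Sfrp1 reached 35.8 in venous or Vwf-like cells. Dkk2 was highest in venous or Vwf-like cells (35.0 CPM), Wif1 in ciliated-like cells (53.7 CPM) and Frzb in the unnamed cluster (8.45 CPM). Of the R-spondins, Rspo3 was highest in aerocyte-like cells (62.1 CPM), the gas-exchange capillary cells, with 13.04 in venous or Vwf-like cells. Rspo1 was highest in fibroblast-like (13.95 CPM) and classical monocyte-like cells (6.65).

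Shares of cells with a UMI were read after thinning each cell to 1000 UMIs, beside B cell-like cells (median 1631 UMIs), which show the free RNA of the libraries that hold them, mainly unchallenged lung. Lung metastasis TME 5 and 6 held 0 and 3 of these cells, primary tumor TME 4, 5 and 6 held 1, 0 and 0, and lung metastasis MM 5 and primary tumor MM 4 and 5 held 0, so that they measure no free RNA there. Fzd4 was found in 30.7% of general capillary-like cells (60.8% before thinning, median 3098 UMIs) and in 2.06% of B cell-like cells. Rspo3 was found in 5.59% of aerocyte-like cells (16.5% before thinning) and in 0.07% of B cell-like cells. Wif1 and Wnt11 were found in 4.49% and 3.53% of ciliated-like cells (9.89% and 8.86% before thinning), against 0.17% and 0.21% of B cell-like cells. Dkk3 was found in 21.7% of MM-like cells (46.7% before thinning) and Fzd9 in 1.53% (5.09%), shares without a background from the same libraries. The shares of the lung classes lay above the B cell-like share, and these values cover counting alone, not the spread between libraries.

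Within the fibroblast-like class the genes sat in different subclusters. The mesothelial-like subcluster (266 cells, of which 245 came from lung metastasis TME), named from 10 of 10 mesothelial markers, held Wnt4 at 467 CPM, Rspo1 at 109 CPM and Sfrp1 at 203 CPM. The adventitial fibroblast-like subcluster (171 cells) held Sfrp4 at 319 CPM, Wnt5a at 205 CPM, Fzd4 at 165 CPM, Fzd2 at 144 CPM, Fzd1 at 133 CPM and the highest Wnt10b (26.0 CPM). The alveolar fibroblast-like subcluster (157 cells) held the highest Wnt2 (95.4 CPM). An unnamed subcluster led by Lrrc15 (213 cells, 207 of them from primary tumor TME and none from lung) held Sfrp2 at 458 CPM, Wnt9a at 61.0 CPM and Wnt16 at 30.5 CPM. Its border was not stable: with another linear algebra kernel in the clustering, only 50.2% of its cells stayed in 1 subcluster, against at least 97.9% for each named subcluster. After thinning, Wnt4 was found in 29.1% of mesothelial-like cells and Rspo1 in 7.98%, Sfrp4 in 19.5% and Wnt5a in 18.8% of adventitial fibroblast-like cells, and Sfrp2 in 15.7% of the subcluster led by Lrrc15. In B cell-like cells these shares were 0.71% for Wnt4, 0.23% for Rspo1, 0.03% for Sfrp4, 0.15% for Wnt5a and 0.05% for Sfrp2, which is no background for the tumor libraries. Before thinning, endothelial-like cells of lung metastasis 5 and 6 held a Wnt4 UMI in 3.14% and 3.81% of cells and an Rspo1 UMI in 0.085% and 0.476%, against 56.4% and 27.1% of mesothelial-like cells (median 1831 and 2844 UMIs against 3806). Endothelial-like cells of primary tumor 4, 5 and 6 held Sfrp2 in 0%, 2.59% and 7.42% of cells, against 31.0% in the subcluster led by Lrrc15. Rspo3 reached 92.4 CPM in peribronchial-like cells (133 cells), but only 1.5% of these cells held a UMI of it before thinning and 0.96% after, so its level there rests on few cells.

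Within the endothelium Dkk2 and Sfrp1 were highest in the arterial-like subcluster (184 cells), at 190 and 317 CPM. Dkk2 was found in 13.8% and Sfrp1 in 19.2% of these cells after thinning, against 0% and 0.11% of B cell-like cells. The lymphatic-like subcluster (76 cells) held Fzd6 at 144 CPM and Wnt4 at 63.6 CPM. Both aerocyte-like subclusters held Rspo3, at 61.7 and 65.6 CPM.

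The tissues were compared on UMIs summed per library and class, with edgeR's quasi-likelihood test, Benjamini-Hochberg adjustment over all genes tested and a call at an adjusted p below 0.05. In fibroblast-like cells 20 of the 43 genes passed the filter on low counts and 23 did not. Between primary tumor TME and unchallenged lung 5 of the 20 were called, 1 higher and 4 lower in primary tumor, where 12.4% of all genes tested were called, 5.27% higher and 7.09% lower. Between lung metastasis TME and unchallenged lung 1 was called, higher, where the share over all genes was 1.02% (0.899% higher and 0.126% lower). Between lung metastasis TME and primary tumor TME 2 were called, both higher, where the share was 1.21% (1.01% higher and 0.207% lower). The 3 comparisons share their libraries, and only 2 lung metastasis TME libraries (5 and 6) held 20 such cells. Tested genes that were not called ranged from -1.73 to 1.76, -2.71 to 2.80 and -2.40 to 3.74 on the log2 scale. The median of the 20 genes was -0.91, -0.15 and 0.61 in the 3 comparisons, against -0.04, -0.03 and 0.02 over all genes tested.

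The fibroblast-like cells of the tissues came mostly from different clusters. The alveolar fibroblast-like cluster gave 57, 148 and 2123 cells in unchallenged lung 4, 5 and 6, 1, 3 and 0 in primary tumor 4, 5 and 6, and 141 and 5 in lung metastasis 5 and 6. The cluster led by Meg3, Col1a1 and Rgs5 gave 13, 20 and 11 cells in unchallenged lung, 190, 118 and 460 in primary tumor, and 277 and 43 in lung metastasis. Its cells in lung metastasis were mostly of the mesothelial-like subcluster (203 of 277 and 30 of 43), and in primary tumor 81 of 190, 49 of 118 and 351 of 460 were tumor fibroblast-like. The fibroblast-like cluster itself gave 0, 0 and 1 cells in unchallenged lung, 1, 16 and 1599 in primary tumor, and 14 and 5 in lung metastasis. The summed level of 10 pericyte or smooth muscle markers was 215 to 1777 CPM in unchallenged lung, 1100 to 6306 in primary tumor and 1389 to 2236 in lung metastasis. The part of this unequal makeup in the differences between tissues, for the 43 genes and for the pathway genes given later, was not tested.

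Wnt4 was called in all 3 comparisons of fibroblast-like cells. Its level was 296 and 441 CPM in lung metastasis TME 5 and 6, 7.11, 13.5 and 9.80 CPM in primary tumor TME 4, 5 and 6, and 90.4, 17.9 and 34.1 CPM in unchallenged lung 4, 5 and 6. The 3 tissues did not overlap, with means of 368 ± 103 (SD, n = 2), 10.1 ± 3.21 (n = 3) and 47.5 ± 38.0 CPM (n = 3). Wnt4 was higher in lung metastasis than in unchallenged lung by 3.12 on the log2 scale (SE 0.551, adjusted p = 0.035) and than in primary tumor by 5.15 (SE 0.598, adjusted p = 0.0127), and lower in primary tumor than in unchallenged lung, with a log2 difference of -2.04 (SE 0.549, adjusted p = 0.0401). Wnt4 stands on a list of metastasis fibroblast genes that the study chose on these samples, so its rise is not independent evidence. All 3 calls were fragile. The call against unchallenged lung was lost without lung metastasis 5 or 6, primary tumor 5 or 6 or unchallenged lung 5 (adjusted p 0.0531 to 0.171, log2 differences 2.75 to 3.76 over all libraries left out), and that against primary tumor without either lung metastasis or any primary tumor library (adjusted p 0.0519 to 0.101, 4.88 to 5.33). The call of primary tumor against unchallenged lung was lost without any library other than unchallenged lung 5 and 6 (adjusted p 0.069 to 0.151, -2.42 to -1.38). The deposited library names carry a run number, and what a run stands for is not stated. Within a run, the log2 ratio of mean CPM, with 1 CPM added to each mean here and below, of primary tumor to unchallenged lung was -3.49 (run 2) and -1.09 (run 3), and within run 3 that of lung metastasis to unchallenged lung was 3.77 and to primary tumor 4.87.

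Within fibroblast-like cells of lung metastasis, most Wnt4 UMIs lay in the mesothelial-like subcluster. This subcluster made up 212 of the 432 fibroblast-like cells of lung metastasis 5 (49.1%) and 31 of 53 in lung metastasis 6 (58.5%), and it held 506 of 533 Wnt4 UMIs (94.9%) and 121 of 126 (96.0%). In unchallenged lung it made up 0 of 70, 7 of 168 and 7 of 2135 cells, and in primary tumor 1 of 192, 2 of 137 and 1 of 2059. The few mesothelial-like cells of unchallenged lung 5 and 6 held 0 and 1 Wnt4 UMIs, too few cells for a level. Without this subcluster the level of Wnt4 in lung metastasis was 36.3 and 62.5 CPM, the difference from unchallenged lung was 0.01 on the log2 scale and that from primary tumor 2.19, and neither was called. The summed level of 10 mesothelial markers in fibroblast-like cells moved with Wnt4: it was 1078 to 1169 CPM in lung metastasis, 169 to 335 in unchallenged lung and 12.1 to 24.6 in primary tumor. The sum of 10 MM markers was also unequal, at 1029 to 4492 CPM in lung metastasis, 533 to 5084 in primary tumor and 19.8 to 32.4 in unchallenged lung, and its part in the result was not tested. Of 6 club markers, which mark a class that also holds Wnt4, the sum was 2463 to 3416 CPM in lung metastasis, 1.3 to 12.0 in primary tumor and 27.1 to 3987 in unchallenged lung, and of 6 ciliated markers it was 66.5 to 69.4, 45.4 to 128 and 84.3 to 1306 CPM. All 3 calls of Wnt4 held without the subclusters led by another cell type (adjusted p 0.000768 to 0.0397 by edgeR).

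**Figure D2:**
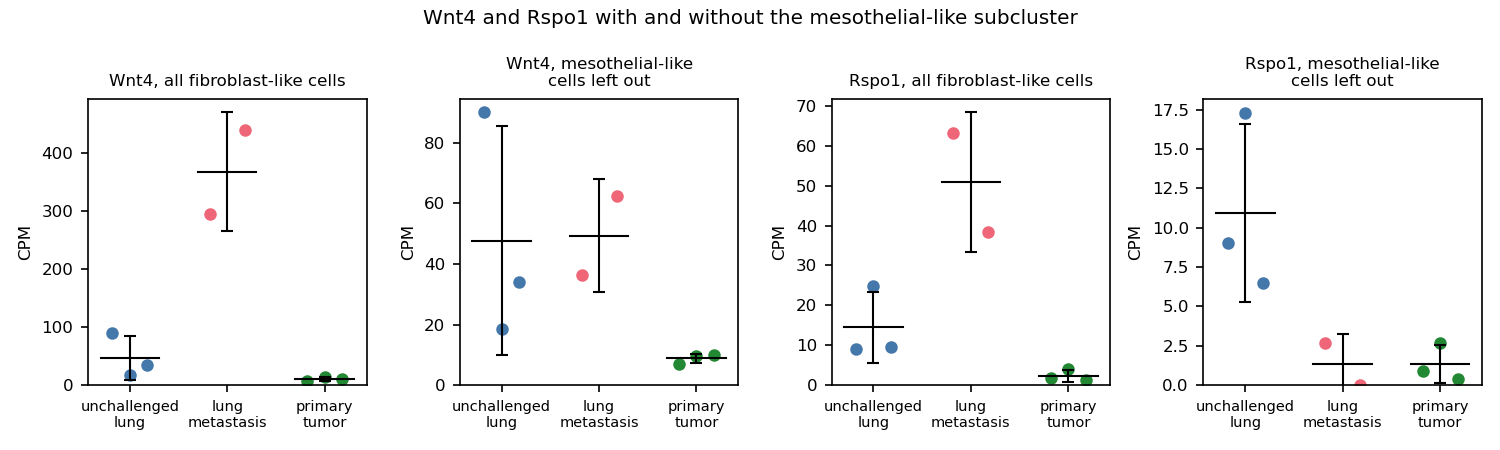
Level of Wnt4 and Rspo1 (CPM, axes differ) in fibroblast-like cells of each library, with all cells and with mesothelial-like cells left out. Points are libraries, lines means and bars SD (n = 3, 2 and 3). Left out, the 2 lung metastasis libraries fall from 296 and 441 to 36.3 and 62.5 CPM of Wnt4, inside the range of unchallenged lung.

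Wnt5a, which in the adult is mainly a mesenchymal ligand, was lower in primary tumor than in unchallenged lung. Its level in fibroblast-like cells was 16.9, 6.75 and 15.2 CPM in primary tumor 4, 5 and 6, against 69.3, 171 and 102 CPM in unchallenged lung 4, 5 and 6, and 62.7 and 49.0 CPM in lung metastasis 5 and 6. Primary tumor lay below both other tissues in every library. The log2 difference of primary tumor from unchallenged lung was -3.05 (SE 0.449, adjusted p = 0.0043) and the call held with any 1 library left out (-3.29 to -2.59). Lung metastasis was above primary tumor by 2.06 (SE 0.485), which missed the threshold (adjusted p = 0.086) and passed it in 5 of 19 alternatives, DESeq2 among them. Wnt11 was at 0, 0 and 0.80 CPM in primary tumor and at 6.02, 11.9 and 9.71 CPM in unchallenged lung, with 9.43 and 3.50 CPM in lung metastasis. It was lower in primary tumor than in unchallenged lung without overlap (log2 -4.03, SE 0.859, adjusted p = 0.0174), and the call was lost without lung metastasis 5 or primary tumor 5 (adjusted p 0.052 and 0.0527). Wnt11 is highest in ciliated-like cells, and the ciliated and club marker sums of fibroblast-like cells reached higher in unchallenged lung than in primary tumor, as given for Wnt4. Without the subclusters led by another cell type Wnt11 no longer passed the filter, so the call was not tested apart from them. The log2 ratio of primary tumor to unchallenged lung was -1.97 and -3.52 within runs 2 and 3 for Wnt5a. No ratio within a run is given for Wnt11, which had no UMI in primary tumor 4 and 5.

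**Figure D3:**
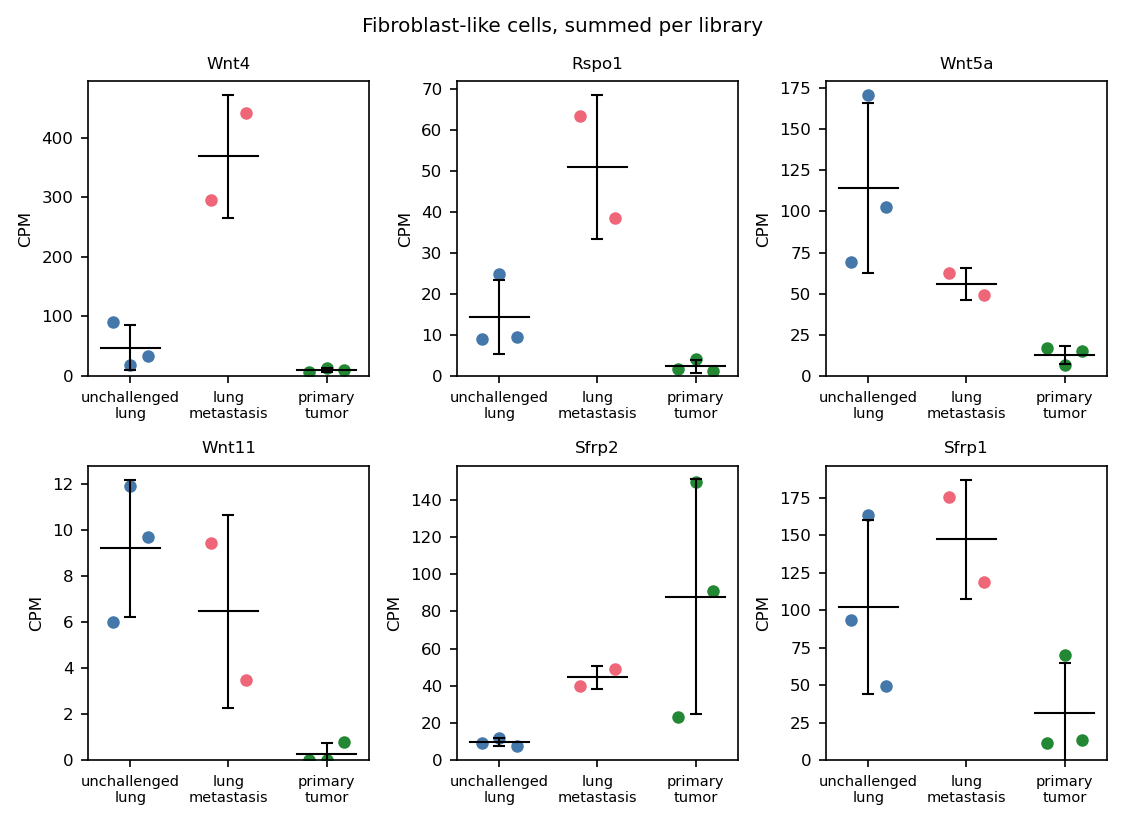
Level (CPM, axes differ) of 3 ligands, Rspo1 and 2 antagonists in fibroblast-like cells of each library of unchallenged lung (n = 3), lung metastasis TME (n = 2) and primary tumor TME (n = 3). Points are libraries, lines means and bars SD. Wnt5a in primary tumor lies between 6.75 and 16.9 CPM, below every lung library, while Sfrp2 lies between 23.1 and 150 CPM, above every unchallenged lung library.

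No Frizzled gene was called in fibroblast-like cells with all subclusters kept. Fzd1 was at 40.0, 41.9 and 46.4 CPM in primary tumor 4, 5 and 6, 120, 145 and 43.3 CPM in unchallenged lung 4, 5 and 6, and 71.6 and 171 CPM in lung metastasis 5 and 6. Primary tumor and unchallenged lung overlapped through unchallenged lung 6 (log2 -1.17, SE 0.47, adjusted p = 0.14), without which Fzd1 was called (-1.57, adjusted p = 0.0209). Fzd2 was at 116, 111 and 48.8 CPM in primary tumor, 33.1, 126 and 42.1 CPM in unchallenged lung and 54.4 and 63.0 CPM in lung metastasis, with overlap between all 3. Fzd4 was at 45.4, 56.7 and 34.4 CPM in primary tumor, 45.2, 137 and 71.2 CPM in unchallenged lung, and 36.1 and 41.98 CPM in lung metastasis. Lung metastasis lay below unchallenged lung without overlap, but the difference was not called (log2 -1.14, SE 0.503, adjusted p = 0.256).

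Sfrp2, a secreted antagonist that can also act with Wnts, was the 1 gene called higher in primary tumor than in unchallenged lung. It was at 23.1, 150 and 91.0 CPM in primary tumor 4, 5 and 6, 9.04, 11.9 and 7.72 CPM in unchallenged lung 4, 5 and 6, and 40.0 and 49.0 CPM in lung metastasis. Both tumor tissues lay above every unchallenged lung library. The log2 difference of primary tumor from unchallenged lung was 3.28 (SE 0.636, adjusted p = 0.0124). The call held with any 1 library left out, at the least 2.69 without primary tumor 5. The log2 ratio was 1.26 within run 2 and 3.49 within run 3. Sfrp1 was at 11.6, 70.2 and 13.2 CPM in primary tumor, 93.4, 164 and 49.1 CPM in unchallenged lung and 175 and 119 CPM in lung metastasis. Its primary tumor and unchallenged lung libraries overlapped and no comparison of it was called (adjusted p 0.165 to 0.722), although primary tumor was lower than unchallenged lung without primary tumor 5 (log2 -2.95, adjusted p = 0.0318). Sfrp4 spread widely inside a tissue, with 25.8, 308 and 33.8 CPM in primary tumor, 18.1, 115 and 41.6 CPM in unchallenged lung and 31.6 and 7.0 CPM in lung metastasis. It was not called, but with the replicate number as a block it was lower in lung metastasis than in primary tumor (adjusted p = 0.0347 by edgeR). The block joins tumors of the same mice by the library names, and unchallenged lungs by number alone. Dkk3 was at 39.1, 81.0 and 86.0 CPM in primary tumor, 172, 178 and 71.5 CPM in unchallenged lung and 142 and 91.0 CPM in lung metastasis, and was not called in any comparison.

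Rspo1, the R-spondin known from mesothelium and developing gonad, moved with Wnt4. It was at 63.3 and 38.5 CPM in lung metastasis 5 and 6, 1.78, 4.05 and 1.20 CPM in primary tumor 4, 5 and 6, and 9.04, 24.8 and 9.46 CPM in unchallenged lung 4, 5 and 6. No 2 tissues overlapped. It was higher in lung metastasis than in primary tumor by 4.77 on the log2 scale (SE 0.675, adjusted p = 0.0153) and lower in primary tumor than in unchallenged lung (log2 -2.90, SE 0.662, adjusted p = 0.0224), while lung metastasis against unchallenged lung was not called (1.88, adjusted p = 0.132). The first call was lost without either lung metastasis or any primary tumor library (adjusted p 0.0547 to 0.278, log2 4.11 at the least without lung metastasis 5), and the second without lung metastasis 5, primary tumor 4 or 6 or unchallenged lung 5 (adjusted p 0.0541 to 0.132, log2 -2.22 without unchallenged lung 5). Within runs 2 and 3 the log2 ratio of primary tumor to unchallenged lung was -1.85 and -2.32, and within run 3 that of lung metastasis to primary tumor was 3.84. The mesothelial-like subcluster held 112 of 114 Rspo1 UMIs (98.2%) in lung metastasis 5 and 11 of 11 in lung metastasis 6, which left 2.7 and 0 CPM in the other cells. In the few mesothelial-like cells of unchallenged lung, Rspo1 had 8 UMIs in 7 cells of replicate 5 and 12 UMIs in 7 cells of replicate 6. In primary tumor 4, 5 and 6 Rspo1 had 2, 3 and 6 UMIs in all, 1, 1 and 4 of them in mesothelial-like cells. Unchallenged lung 4 held 3 UMIs. Both calls of Rspo1 involve primary tumor and so rest on these few UMIs.

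Without the stromal subclusters led by another cell type, which left 71 cells of unchallenged lung 6 and 603 of primary tumor 6, 9 of 19 genes tested were called between primary tumor TME and unchallenged lung, where 18.5% of all genes tested were called. Dkk3, Fzd1, Fzd3, Fzd7, Rspo1, Sfrp1, Wnt4 and Wnt5a were then lower in primary tumor and Sfrp2 higher, while Wnt11 no longer passed the filter. The differences were -1.94 for Wnt4 (adjusted p = 0.0397), -3.47 for Wnt5a (0.000339), -3.51 for Rspo1 (0.002) and 2.31 for Sfrp2 (0.0271) on the log2 scale. Wnt4 was again the 1 gene called between lung metastasis and unchallenged lung (log2 3.08, adjusted p = 0.00977, share of all genes 7.19%). Wnt4 (5.03, adjusted p = 0.000768) and Rspo1 (4.63, adjusted p = 0.000862) were again the 2 called between the tumor tissues (share of all genes 4.76%).

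In endothelial-like cells 7 of the 43 genes passed the filter. Between primary tumor TME and unchallenged lung (4 libraries each) 3 of the 7 were called, 2 higher and 1 lower in primary tumor, where 28.1% of all genes were called, 14.4% higher and 13.7% lower. Between lung metastasis TME and primary tumor TME 4 were called, 1 higher and 3 lower in lung metastasis, where the share was 11.9% (6.6% higher and 5.35% lower). Between lung metastasis TME and unchallenged lung edgeR called 0 of 7, where the share was 3.52% (2.83% higher and 0.685% lower). In that comparison 3 of the 7 had an unadjusted p below 0.05, and DESeq2 called 0. Tested genes that were not called between primary tumor and unchallenged lung ranged from -0.80 to 1.64 on the log2 scale. The median of the 7 genes was 0.37 there, against -0.02 over all genes.

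Fzd4 was lower in endothelial-like cells of primary tumors, as was the summed level of endothelial markers given below. Its level was 124, 125, 132 and 148 CPM in primary tumor 1-3, 4, 5 and 6, 225, 363, 360 and 339 CPM in unchallenged lung 1, 4, 5 and 6, and 361, 279, 164 and 229 CPM in lung metastasis 1-3, 4, 5 and 6. Every primary tumor library lay below every library of the other tissues. The means were 132 ± 11.1, 322 ± 65.3 and 258 ± 83.2 CPM (SD, n = 4 each). The log2 difference of primary tumor from unchallenged lung was -1.16 (SE 0.237, adjusted p = 0.00185), and the call held in all 22 alternatives. Within runs 1, 2 and 3 the log2 ratio was -0.86, -1.54 and -1.31. Lung metastasis was above primary tumor by 0.85 (SE 0.241, adjusted p = 0.0321), and this call was lost without lung metastasis 1-3 or 4 or any 1 primary tumor library (adjusted p 0.0516 to 0.077). The sum of 10 endothelial markers in these cells had the same order. It was 8090 to 9715 CPM in primary tumor, 9774 to 17723 in lung metastasis and 14331 to 19439 in unchallenged lung. For 7 general capillary markers the sums were 3053 to 3983, 3439 to 8294 and 4496 to 9668 CPM. Their part in the differences of Fzd4 was not tested.

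Fzd6 and the antagonist Dkk2 were higher in primary tumor endothelium. Fzd6 was at 116, 117, 104 and 90.2 CPM in primary tumor 1-3, 4, 5 and 6, 42.2, 32.8, 62.8 and 53.2 CPM in unchallenged lung 1, 4, 5 and 6, and 43.8, 41.9, 32.5 and 97.49 CPM in lung metastasis 1-3, 4, 5 and 6. Primary tumor did not overlap with unchallenged lung (log2 1.27, SE 0.299, adjusted p = 0.00504) and overlapped with lung metastasis through lung metastasis 6. Lung metastasis against primary tumor (log2 -1.05, SE 0.318, adjusted p = 0.0441) was lost with the replicate block (adjusted p = 0.0523) and without any 1 library other than lung metastasis 6 and unchallenged lung 4 and 5 (adjusted p 0.0536 to 0.126). Dkk2 was at 28.0, 29.3, 59.6 and 38.6 CPM in primary tumor, 4.02, 3.21, 10.98 and 22.3 CPM in unchallenged lung, and 0, 6.44, 10.2 and 4.06 CPM in lung metastasis. Primary tumor lay above both other tissues in every library, by 2.28 on the log2 scale over unchallenged lung (SE 0.533, adjusted p = 0.00489) and with lung metastasis lower by -2.50 (SE 0.616, adjusted p = 0.0152). The last call was lost without primary tumor 5 (-2.22, adjusted p = 0.0577), and the difference was -3.23 without lung metastasis 5. Within runs 1, 2 and 3 the log2 ratio of primary tumor to unchallenged lung was 1.43, 1.80 and 0.73 for Fzd6 and 2.53, 2.85 and 1.51 for Dkk2.

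Rspo3, the R-spondin of the aerocyte-like cells, was called only between the tumor tissues. It was at 28.0, 17.8, 39.7 and 14.4 CPM in primary tumor 1-3, 4, 5 and 6, 5.47, 0, 10.2 and 4.06 CPM in lung metastasis, and 25.5, 12.2, 21.1 and 23.2 CPM in unchallenged lung. Lung metastasis lay below primary tumor without overlap (log2 -1.95, SE 0.552, adjusted p = 0.0312). The call was lost without lung metastasis 1-3, 4 or 6 or primary tumor 1-3, 4 or 5 (adjusted p 0.0551 to 0.137), and the difference was -3.25 without lung metastasis 5.

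The libraries differed in their kinds of endothelium. Primary tumor endothelium was nearly all venous or Vwf-like, and the summed level of 6 aerocyte markers was 434 to 747 CPM in primary tumor, 733 to 1416 in lung metastasis and 1611 to 2950 in unchallenged lung. Within the venous or Vwf-like class alone, an alternative chosen after the data were seen, 2 of 7 genes were called between primary tumor and unchallenged lung, where 21.4% of all genes were called. Fzd4 was one of them, at 119, 125, 132 and 148 CPM in primary tumor against 227, 368, 319 and 398 CPM in unchallenged lung (log2 -1.26, SE 0.249, adjusted p = 0.0014). Sfrp1 was the other, at 0, 2.54, 4.26 and 3.03 CPM against 60.4, 3.76, 135 and 97.0 CPM (log2 -4.58, SE 0.768, adjusted p = 0.000357), with overlap through unchallenged lung 4. Fzd6 (log2 -0.01, adjusted p = 0.983) and Dkk2 (log2 -0.19, adjusted p = 0.764) were no longer called, with Dkk2 at 32.0, 29.3, 59.6 and 38.6 CPM in primary tumor against 28.99, 41.4, 43.9 and 86.6 CPM in unchallenged lung. Without the endothelial subclusters led by another cell type, 17 to 28 cells were left in each primary tumor library, and primary tumor 1-3 and 4 and lung metastasis 5 fell below 20 cells and left the fit. Fzd4 (log2 -1.75, SE 0.402, adjusted p = 0.0162) and Fzd6 (1.64, SE 0.428, adjusted p = 0.0294) were then called between primary tumor and unchallenged lung, where 12.7% of all genes were called. Dkk2 was not (2.58, SE 0.901, adjusted p = 0.0867). Between the tumor tissues edgeR called 0 of 7 genes, 3 of them at an unadjusted p below 0.05, where 3.1% of all genes were called. Between lung metastasis and unchallenged lung it called 0 of 7, 1 of them at an unadjusted p below 0.05, where 0.0673% of all genes were called.

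**Figure D4:**
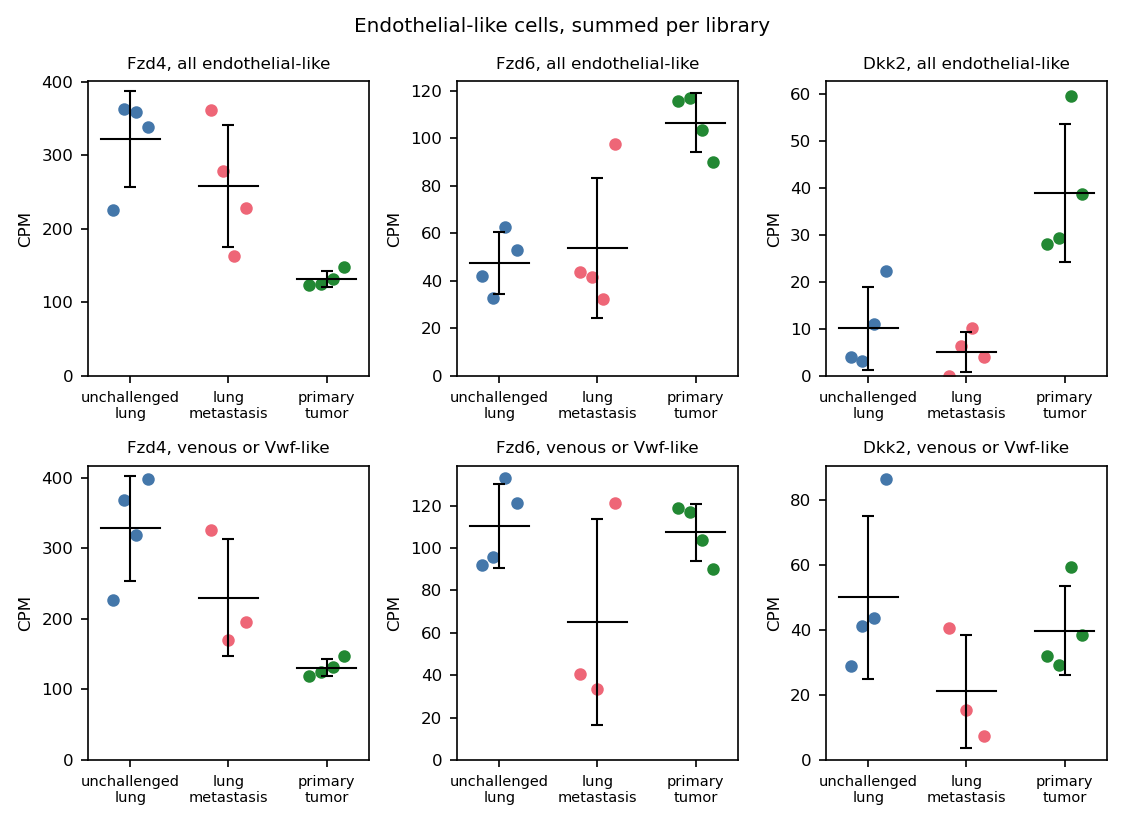
Level (CPM, axes differ) of Fzd4, Fzd6 and Dkk2 in all endothelial-like cells (top) and in the venous or Vwf-like class alone (bottom) of each library of the 3 tissues. Points are libraries, lines means and bars SD (n = 4 each on top, and 4, 3 and 4 at the bottom). Fzd4 in primary tumor (119 to 148 CPM) lies below unchallenged lung in both, while the gap of Fzd6 and Dkk2 closes in the bottom panels.

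In sorted MM cells edgeR called 0 of 16 genes tested between lung metastasis and primary tumor, where 0.007% of all genes were called (0% higher and 0.007% lower, a single gene). Of the 16, 1 had an unadjusted p below 0.05 and DESeq2 called 1, in both cases Wnt4. Lung metastasis MM 4 stood apart: 277 of its 638 cells (43.4%) were MM-like and entered the test, against 95.6% to 99.7% of cells in the other sorted libraries. The largest MM-like cluster was named in part from its sort, so these shares are not independent of the sort. Wnt4 was at 8.28 (12 UMIs) and 8.90 CPM in lung metastasis MM 4 and 5 and at 31.1 and 58.9 CPM in primary tumor MM 4 and 5. The libraries did not overlap, with a log2 difference of -2.38 (SE 0.387, adjusted p = 0.0771 by edgeR's quasi-likelihood test). It was called with the replicate block, with DESeq2's size factors, without the filter, and without primary tumor MM 4 (-2.65, adjusted p = 0.00043) or 5 (-2.02, adjusted p = 0.0432). In the last pair of fits the 1 primary tumor library left was assumed to vary like those of lung metastasis, so they do not test its spread. Dkk3, by contrast, was at 269 and 276 CPM in lung metastasis MM and at 239 and 222 CPM in primary tumor MM (log2 0.20, SE 0.368, adjusted p = 1). The unnamed cluster led by Col2a1 and Cspg4 gave a like order in the sorted libraries, at 126 and 88.2 CPM of Wnt4 in lung metastasis MM and 599 and 454 CPM in primary tumor MM, and it spread from 55.1 to 283 CPM in the TME libraries of primary tumor. It was not tested as a class.

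In ciliated-like cells, present in lung metastasis TME 5 and 6 and unchallenged lung 1, 5 and 6, edgeR called 0 of 11 genes, where 0.377% of all genes were called (0.377% higher and 0% lower). Of the 11, 3 had an unadjusted p below 0.05, and DESeq2 called 0. Wnt4 was at 167 and 221 CPM in lung metastasis and 84.7, 136 and 75.5 CPM in unchallenged lung, without overlap (log2 0.98, SE 0.396, adjusted p = 0.502). Wnt11 was at 51.5 and 71.3 CPM in lung metastasis and 91.7, 87.1 and 36.7 CPM in unchallenged lung, and Wif1 at 63.5 and 60.6 CPM against 28.2, 81.6 and 48.9 CPM. Fzd6 was at 40.2 and 60.6 CPM against 49.4, 68.6 and 37.3 CPM. Wnt11, Wif1 and Fzd6 overlapped between the tissues. The MM marker sum in these cells was 1533 to 5073 CPM in lung metastasis and 27.2 to 30.5 in unchallenged lung, and Dkk3, which is high in MM-like cells, was at 52.3 and 10.7 CPM in lung metastasis against 0, 0 and 2.82 CPM. The sum of 10 mesothelial markers was 1490 to 1542 CPM in lung metastasis and 515 to 1270 in unchallenged lung, without overlap. This list holds the keratins Krt8 and Krt19, and the club-like cluster also raised 3 of its 10 markers. Msln, on the same list, had no UMI in ciliated-like cells of lung metastasis, so the sum does not by itself show mesothelial RNA. The sum of 9 alveolar macrophage markers was 207 to 381 CPM in lung metastasis and 226 to 3412 in unchallenged lung. The largest ciliated-like cluster, with 7468 of 7646 cells from unchallenged lung 6, also raised 7 of 9 alveolar macrophage and 6 of 7 neutrophil markers. Whether RNA of other cell types had a part in these levels was not tested. AT-2-like cells were not tested with this minimum, since only 1 lung metastasis library held 20 of them.

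The target genes and the other genes of the pathway were counted on lists of 19 targets (17 in the gene list), 39 receptors and transducers and 6 genes listed as further antagonists. Cthrc1 and Bambi are on the last list, and whether its genes act against Wnt signaling in these cells was not tested. In endothelial-like cells 8 targets were tested, of which 6 were lower and 1 higher in primary tumor than in unchallenged lung, where 13.7% of all genes were lower and 14.4% higher. Their median log2 difference was -2.36, against -0.02 over all genes. Nkd1, an inhibitor that canonical signaling induces, was at 24.0, 1.27, 1.42 and 0.76 CPM in primary tumor 1-3, 4, 5 and 6, 325, 309, 207 and 206 CPM in unchallenged lung 1, 4, 5 and 6, and 164, 288, 133 and 98.9 CPM in lung metastasis 1-3, 4, 5 and 6. Every primary tumor library was below every other library (log2 -6.18 from unchallenged lung, SE 0.655, adjusted p = 1.23e-05). The difference was -7.75 without primary tumor 1-3 and -5.54 without primary tumor 6. The primary tumor levels of Nkd1 rest on few UMIs in each library, so the size of these differences is loosely set.

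Axin2, the scaffold of the destruction complex and the most used readout of the pathway, had 3 UMIs in primary tumor endothelium and 354 in unchallenged lung. At 3.99, 0, 2.84 and 0 CPM against 19.1, 23.6, 18.9 and 19.7 CPM, and in UMIs summed over the libraries of each tissue, in which larger libraries weigh more than in a mean of the levels, the ratio of unchallenged lung to primary tumor was 21.3 (95% counting interval 7.2 to 103.9, adjusted p = 0.00139 by edgeR). Lung metastasis was at 16.4, 56.4, 10.9 and 16.3 CPM, and in summed UMIs 18.8 times primary tumor (6.2 to 93.0, adjusted p = 0.00317). Both the ratios rest on the 3 UMIs. Nkd2, a relative of Nkd1, was at 3.99, 3.82, 4.26 and 6.82 CPM in primary tumor and at 20.0 to 46.7 CPM in the 8 lung libraries (log2 -2.28 from unchallenged lung, SE 0.389, adjusted p = 0.000472). Tcf7 (log2 -3.30, adjusted p = 0.00134), a TCF/LEF factor, and Jun (log2 -2.45, adjusted p = 1.38e-05), which many other signals also induce, were lower as well. Tcf7 was -4.27 without primary tumor 1-3. Cd44 (log2 -1.26, adjusted p = 0.0417) was lost without 6 of the 12 libraries in turn: any of the 4 primary tumor libraries or unchallenged lung 5 or 6 (adjusted p 0.0533 to 0.12). Bambi, a membrane decoy receptor of TGF-beta signaling that is on 2 of the lists (targets and further antagonists), was higher (log2 1.49, adjusted p = 0.00133). Against lung metastasis the order was alike: Nkd1 (log2 5.60), Tcf7 (3.00), Nkd2 (2.39) and Jun (2.07) were higher and Bambi (-1.35) lower in lung metastasis than in primary tumor, with adjusted p from 0.000167 to 0.0118. Tcf7 was lost there without primary tumor 6 (adjusted p = 0.0556) and Bambi without primary tumor 4 (0.0507), and Nkd1 was 7.17 without primary tumor 1-3. None of the 8 targets was called between lung metastasis and unchallenged lung by edgeR, where 3.52% of all genes were called. Of them 0 had an unadjusted p below 0.05, and DESeq2 called 0.

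Within the venous or Vwf-like class alone, Nkd1 (log2 -6.22), Axin2 (-5.37) and Nkd2 (-3.29) were still lower in primary tumor than in unchallenged lung. Without the endothelial subclusters led by another cell type, Nkd1 (log2 -5.45, adjusted p = 0.000623), Jun (-1.84, adjusted p = 0.014), Tcf7 (adjusted p = 0.0489) and Nkd2 (adjusted p = 0.0445) were called lower, and Axin2 (adjusted p = 0.159), Cd44 (0.287) and Bambi (0.486) were not called. Between the tumor tissues only Nkd1 of these targets was still called (5.07, adjusted p = 0.00355), with adjusted p from 0.0537 to 0.398 for Jun, Nkd2, Tcf7, Axin2 and Bambi. The summed level of 9 fibroblast markers in endothelial-like cells was 747 to 2445 CPM in primary tumor, 54.4 to 528 in unchallenged lung and 93.0 to 1060 in lung metastasis, and that of 10 MM markers was 230 to 1730, 7.3 to 18.8 and 507 to 7966. The part of these cells in the target genes was not tested.

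Of 27 receptors and transducers tested in endothelial-like cells, 6 were higher and 6 lower in primary tumor than in unchallenged lung, where 28.1% of all genes were called, with a median of -0.26 against -0.02 over all genes. Higher were Ptk7 (log2 3.06), Tcf7l1 (2.23), Ctnnbip1 (2.11), Tle3 (1.68), Ctnnb1 (1.13) and Dvl1 (0.71). Of these, Ctnnbip1 and Tle3 are known as inhibitors and Tcf7l1 mainly as a repressor of target genes, while Ctnnb1 encodes β-catenin itself. Ctnnb1 was at 384, 418, 457 and 577 CPM in primary tumor and 204 to 254 CPM in unchallenged lung, without overlap. Lower were Znrf3 (-2.89), Lrp4 (-1.43), Ryk (-0.79), Lrp6 (-0.77), Tspan12 (-0.75), which assists Fzd4, and Wls (-0.60), which carries Wnts to the surface. The call of Lrp4 was lost without 5 of the 12 libraries in turn (primary tumor 4 or 5 or unchallenged lung 1, 5 or 6), that of Dvl1 without 5 (primary tumor 5 or 6 or unchallenged lung 1, 4 or 6), that of Tspan12 without 3 (primary tumor 4 or 5 or unchallenged lung 6) and that of Lrp6 without 2 (primary tumor 4 or 5). Lrp4 (log2 -2.09) and Tspan12 (-1.05) were also lower in lung metastasis than in unchallenged lung, and both calls were lost without lung metastasis 5 or 6, that of Lrp4 also without unchallenged lung 1, 5 or 6. Between lung metastasis and primary tumor, 1 of the 27 was higher and 4 were lower in lung metastasis, where 11.9% of all genes were called. The median of the 27 was -0.02 there, against 0.04 over all genes. The secreted matrix protein Cthrc1 was higher in primary tumor endothelium (log2 3.49), a gene that the fibroblasts of these tumors hold at 122 to 396 CPM. Without the subclusters led by another cell type, Ctnnb1 (1.23), Dvl1 (1.48), Tspan12 (-2.28), Ryk (-1.48) and Lrp4 were called between primary tumor and unchallenged lung (adjusted p 0.00407 to 0.0482), Tcf7l1, Ctnnbip1, Tle3, Lrp6, Wls and Cthrc1 were not (adjusted p 0.0533 to 0.752), and Ptk7 and Znrf3 no longer passed the filter. Lrp4 (adjusted p = 0.669) and Tspan12 (adjusted p = 0.507) were then not called between lung metastasis and unchallenged lung.

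**Figure D5:**
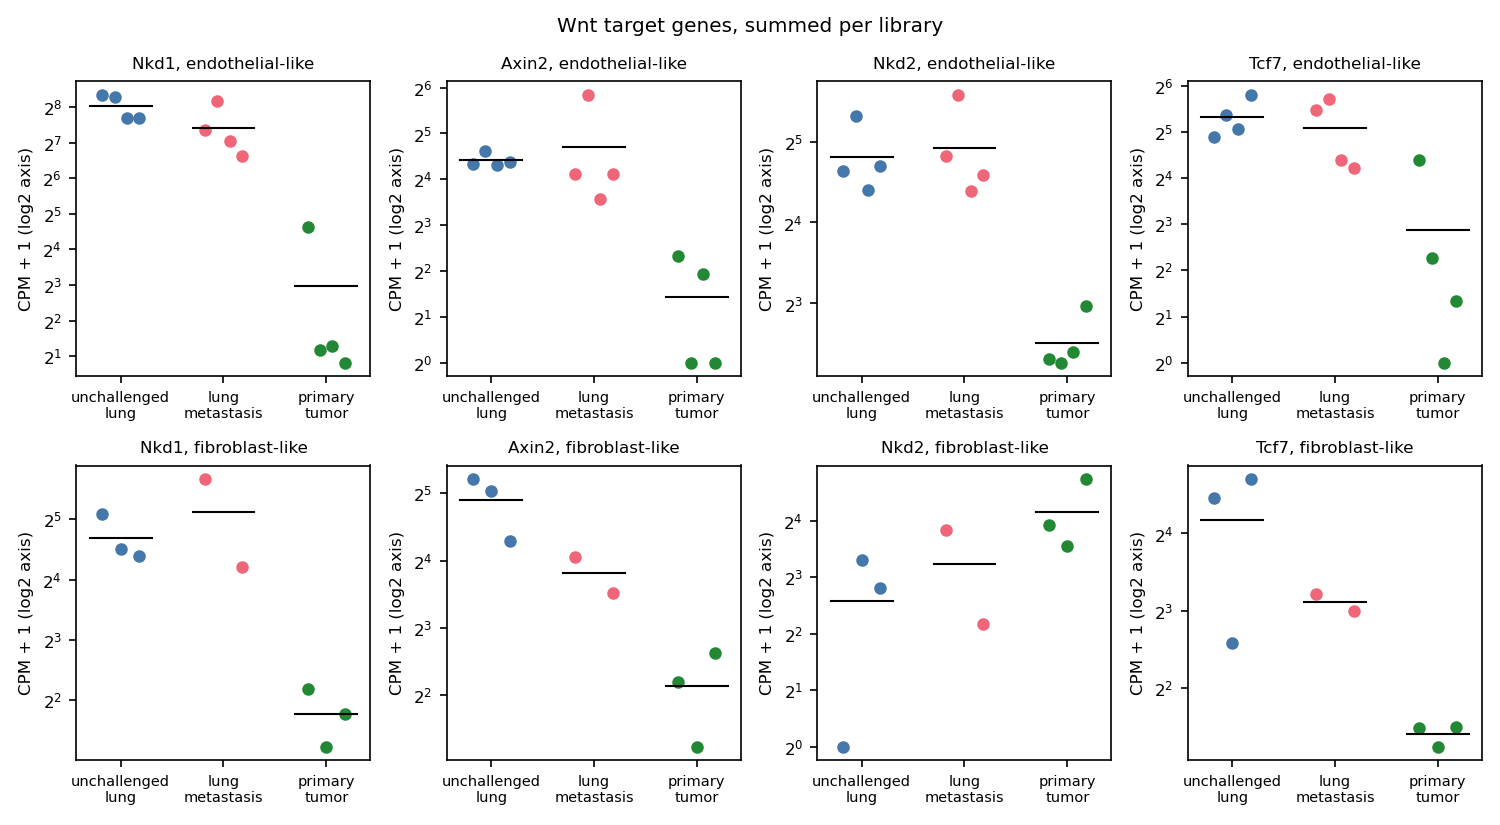
Level (CPM + 1, log2 axis) of the target genes Nkd1, Axin2, Nkd2 and Tcf7 in endothelial-like (top) and fibroblast-like cells (bottom) of each library of unchallenged lung (n = 4 and 3), lung metastasis TME (n = 4 and 2) and primary tumor TME (n = 4 and 3). Points are libraries and lines means. In endothelial-like cells all 4 genes lie lowest in primary tumor, with 0.76 to 24.0 CPM of Nkd1, while Nkd2 does not do so in fibroblast-like cells.

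In fibroblast-like cells, whose clusters differed between the tissues as given above, 14 targets were tested, of which 4 were lower and 1 higher in primary tumor than in unchallenged lung, where 7.09% of all genes were lower and 5.27% higher, with a median of -1.22 against -0.04 over all genes. Axin2 was at 3.56, 1.35 and 5.20 CPM in primary tumor 4, 5 and 6, 36.2, 31.8 and 18.7 CPM in unchallenged lung 4, 5 and 6, and 15.5 and 10.5 CPM in lung metastasis 5 and 6, so that no 2 tissues overlapped (log2 -2.76 from unchallenged lung, SE 0.495, adjusted p = 0.00966). Nkd1 was at 3.56, 1.35 and 2.40 CPM in primary tumor, 33.1, 21.8 and 19.9 CPM in unchallenged lung and 50.0 and 17.5 CPM in lung metastasis (log2 -3.16, SE 0.534, adjusted p = 0.00785). Tcf7 was lower in primary tumor too (log2 -3.21, adjusted p = 0.0168, lost without primary tumor 5 or 6 at adjusted p 0.0578 and 0.0862). Tnfrsf19, a receptor of the TNF family, had 1 UMI in primary tumor and 173 in unchallenged lung, a ratio of 221.7 in UMIs summed over libraries (95% counting interval 39.3 to 8808.4, adjusted p = 0.00237). Its levels in unchallenged lung spread from 21.9 to 130 CPM.

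Ccn4, the target once named Wisp1, went the other way in fibroblast-like cells. It was at 42.7, 77.0 and 28.6 CPM in primary tumor, 68.8 and 63.0 CPM in lung metastasis and 3.01, 8.93 and 3.98 CPM in unchallenged lung, so that both tumor tissues lay above unchallenged lung (log2 3.204, adjusted p = 0.00738, and 3.63, adjusted p = 0.0304). The second call was lost without lung metastasis 5 or 6 or unchallenged lung 4 (adjusted p 0.055 to 0.201). Of 33 receptors and transducers tested, 2 were higher in primary tumor than in unchallenged lung, the R-spondin receptor Lgr4 (log2 2.34, adjusted p = 0.0128) and Gpc4 (1.87, adjusted p = 0.0396), and 3 were lower: Reck (-2.50), Lrp4 (-2.46) and Znrf3 (-2.43). Their median was 0.04 against -0.04 over all genes, and the 5 calls among 33 lay near the 12.4% called over all genes. Lgr4 was at 29.3, 39.2 and 37.4 CPM in primary tumor, 6.02, 9.92 and 5.73 CPM in unchallenged lung and 4.99 and 17.5 CPM in lung metastasis. Lrp4 was at 24.9, 14.9 and 23.2 CPM in primary tumor, 20.5 and 17.5 CPM in lung metastasis and 196, 121 and 66.0 CPM in unchallenged lung, and was lower in lung metastasis as well (log2 -2.59, adjusted p = 0.0483, lost without 7 of the 8 libraries in turn at adjusted p 0.0638 to 0.269). The calls of Lgr4 and Reck were lost without primary tumor 6 (adjusted p 0.0581 and 0.0664), and those of Gpc4 and Znrf3 without 7 and 6 of the 8 libraries in turn (adjusted p 0.0581 to 0.126). Between lung metastasis and primary tumor, Nkd1 (log2 3.85, adjusted p = 0.0167) and Tnfrsf19 (ratio of summed UMIs 85.5, counting interval 14 to 3504.5, adjusted p = 0.0493) were higher and Cthrc1 lower (log2 -3.27, adjusted p = 0.0435). These 3 calls were each lost without either lung metastasis or any primary tumor library (adjusted p 0.0522 to 0.558), and that of Tnfrsf19 also without unchallenged lung 5. The mesothelial-like subcluster held 73 of 90 Nkd1 UMIs (81.1%) in lung metastasis 5 and 3 of 5 in lung metastasis 6, and without it Nkd1 was at 22.8 and 25 CPM there. Without mesothelial-like cells Nkd1 (3.27, adjusted p = 0.111) and Cthrc1 (-3.12, adjusted p = 0.112) were not called between the tumor tissues, nor were Ccn4 (3.86, adjusted p = 0.0748) and Lrp4 (-1.27, adjusted p = 0.34) between lung metastasis and unchallenged lung. Of the genes listed as further antagonists only Cthrc1, whose action on Wnt signaling was not tested, was called between primary tumor and unchallenged lung. It was at 122, 396 and 203 CPM against 0, 3.97 and 2.49 CPM (log2 6.53, SE 0.655, adjusted p = 0.00168 by edgeR). Without the subclusters led by another cell type, the calls of these targets and other pathway genes in fibroblast-like cells held (adjusted p 6.85e-05 to 0.0193), except that Tcf7 no longer passed the filter.

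In sorted MM cells 35 receptors and transducers and 14 targets were tested, and in ciliated-like cells 27 and 4, and none of them was called by edgeR, where 0.007% and 0.377% of all genes were called. An unadjusted p below 0.05 was found for 2 and 1 of them in MM cells and for 2 and 1 in ciliated-like cells. DESeq2 called 0 in MM cells and, in ciliated-like cells, 1 receptor or transducer and 0 targets.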

How the data were processed

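Single-cell suspensions were cryopreserved, later sorted, and sequenced with 10x 3' chemistry. The authors deposited raw UMI counts per gene and cell, a log-normalized table that was not used here, and cell metadata that tie barcodes to libraries. Per the submitters' processing notes, Cell Ranger 6.1.1, Seurat 3.2.2 and GRCm38 (mm10) were used. Columns of values with no matching sample numbered 0. Of 110283 deposited barcodes, 9924 in identical libraries were removed, which left 100359 cells. The genes and lists were chosen with earlier results of these data known.

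Cells were clustered with Seurat 5.3.0 in R 4.3.3 (2000 variable genes with the 43 genes left out, 17 principal components, 20 neighbors, resolution 0.5, and 12 components for subclusters). A name needed at least 3 markers raised by a log2 fold of 1 in at least 10% of cells, a rule set after the clusters were seen. Where only a minority of a list was raised, 1 of its markers also had to be among the 10 leading genes. Clusters made up almost wholly of sorted MM cells were exempt from this. No doublet caller was run and no doublets were removed. Counts were summed per library and class with at least 20 cells, filtered with filterByExpr, scaled by TMM and tested with edgeR 4.0.16 (quasi-likelihood, all groups of a class in 1 fit, Benjamini-Hochberg, call at 0.05). The SE given with an edgeR log2 difference was derived from the test, as the absolute difference divided by the square root of its F statistic. Summaries used Python 3.11.15, numpy 2.4.6, scipy 1.17.1, pandas 2.3.3 and matplotlib 3.10.9. DESeq2 1.42.0, other scalings, filters, clusterings, cell minimums, a replicate block and libraries left out were alternatives. The endothelium without subclusters led by another cell type, the venous or Vwf-like class alone, and ciliated-like cells without a low-UMI cluster were among those chosen after the data were seen. Shares were thinned to 1000 UMIs, with 95% intervals that cover counting error only. P-values measure the spread between libraries.

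By the library names, replicate numbers join lung metastasis and primary tumor of the same mice for replicates 1 to 3, 5 and 6 but not 4, and the pooled libraries 1-3 share mice only in part (mice 2 and 3 in lung metastasis, 1 to 3 in primary tumor). The counts of TME replicates 5 and 6 of both tumor tissues were also deposited under other mouse numbers, so their mice are not certain. Every called gene of the 43 is named, as are uncalled ones whose mean reached 50 CPM in any group compared. The tests were checked on simulated data, where small changes were mostly missed, in fibroblast-like cells large ones as well, and, in fibroblast-like and MM cells, false calls ran above the nominal share. Where leaving out a library left a group with 1, that library was assumed to vary like the other groups. Metadata and labels disagreed on some replicate numbers (unchallenged lung 1 is numbered 2 in the metadata), which were matched through the mouse or as the 1 library left, with no effect on the groups. The linear algebra kernel was fixed, and a second kernel was tried for the subclusters after the data were seen.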

Additional observations from a re-analysis of the deposited data

Results flagged for a closer look

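Wnt4 differed between lung metastasis and primary tumor with opposite sign in 2 kinds of cells. In sorted MM cells its log2 difference was -2.38 and not called (adjusted p = 0.0771 by edgeR), with both lung metastasis libraries below both primary tumor libraries, and in fibroblast-like cells it was 5.15, with both lung metastasis libraries above all 3 primary tumor libraries, and fell to 2.19, not called, without mesothelial-like cells. The difference between the cell types was not tested. Among 75 groups of 4 endothelial libraries searched, of the 43 genes and the called pathway genes, 5 held a library whose gap to the nearest other, as a share of the range, passed Dixon's 95% critical value, where chance alone gives about 1 in 20. None of the 5 is of the 43 genes. Axin2 was at 56.4 CPM in lung metastasis 4 against 10.9 to 16.4 in the other libraries of that tissue. Nkd1 was at 24.0 CPM in primary tumor 1-3 against 0.76 to 1.42, and Ryk at 67.9 CPM there against 48.2 to 50.8. Nkd2 was at 6.8 CPM in primary tumor 6 against 3.82 to 4.26, and Znrf3 at 3.0 CPM there against 0 in the other primary tumor libraries. The primary tumor levels of Nkd1, Nkd2 and Znrf3 rest on few UMIs.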

How the results depend on the processing

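Of 65 calls of a gene in 1 comparison (the 43 genes and the pathway lists), 17 stayed past the threshold in every alternative run. The count of called genes among the 43 moved as follows. Shares in parentheses are those of all genes called under the same setting, and without a filter 32 to 37 of the 43 genes were tested. In fibroblast-like cells, primary tumor against unchallenged lung gave 3 in place of 5 with a minimum of 10 cells (11.7%), with only the 2 groups compared (11.6%) and without mesothelial-like cells (11.2%), and 9 without subclusters led by another cell type (18.5%). Lung metastasis against unchallenged lung gave 2 in place of 1 without a filter (3.63%), and 0 with a minimum of 10 cells (0.665%), with only the 2 groups (0.364%) and without mesothelial-like cells (0.0188%). Lung metastasis against primary tumor gave 4 in place of 2 without a filter (1.74%) and 0 without mesothelial-like cells (0.488%). In endothelial-like cells, the counts without a filter were 8 of 36 tested in place of 3 of 7 (16.9% of all genes in place of 28.1%) and 3 of 36 in place of 0 of 7 (3.82% in place of 3.52%) for primary tumor and lung metastasis against unchallenged lung, the latter 2 in the venous or Vwf-like class alone (8.93%). Lung metastasis against primary tumor gave 1 in place of 4 at resolution 1.0 (7.96%) and in the venous or Vwf-like class alone (4.02%), and 0 without subclusters led by another cell type (3.1%). Sorted MM cells gave 1 in place of 0 with DESeq2 (0.175%), DESeq2's size factors (0.049%) and no filter (0.404%). Ciliated-like cells gave 2 in place of 0 without a filter (3.63%) and 1 without a low-UMI cluster (2.38%). AT-2-like cells could be fitted only with a minimum of 10 cells, where edgeR called 0 of 3 genes, 0 of them at an unadjusted p below 0.05. No share of all genes is given for that fit. The causes of these changed counts were not tested.

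Leaving out 1 library in turn gave 2 to 5, 0 to 1 and 0 to 3 called genes in the 3 fibroblast-like comparisons (in the order above), 3 to 4, 0 to 2 and 0 to 4 in the endothelial-like ones, 0 to 1 in MM cells and 0 to 0 in ciliated-like cells. Shares of all genes are not given for these fits, so whether the counts moved with them is not shown. With the replicate block the counts were 6, 1 and 3 (12.7%, 1.2% and 1.8% of all genes), then 4, 0 and 3 (27.8%, 2.78% and 11.9%), then 1 and 0 (0.84% and 1.41%). The block added Sfrp1 in fibroblast-like and Fzd8 in endothelial-like cells between primary tumor and unchallenged lung, whose libraries share only a number.

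Values that changed sign were, in fibroblast-like cells, Fzd2 (-0.08 without subclusters led by another cell type) and Sfrp4 (-0.94 without primary tumor 5) for primary tumor against unchallenged lung. For lung metastasis against unchallenged lung they were Fzd1 (-0.39, -0.19, -0.15 and -1.0 without lung metastasis 6, unchallenged lung 6, subclusters led by another cell type and mesothelial-like cells), Dkk3 (0.15, 0.15 and 0.02 without lung metastasis 6, unchallenged lung 5 and mesothelial-like cells), Sfrp1 (-0.38 without mesothelial-like cells) and Fzd2 (0.68 without unchallenged lung 5). In the venous or Vwf-like class alone they were Dkk2 (-0.19), Fzd6 (-0.01) and Tspan12 (0.19) for primary tumor and Fzd6 (-0.71, and -0.26 without lung metastasis 6) for lung metastasis. Dkk3 in MM cells was -0.03 with the 43 genes kept in the clustering. In ciliated-like cells they were Wnt11 (0.06 with the block, 0.02 and 0.12 without lung metastasis 5 and unchallenged lung 5), Wif1 (-0.03 with the block, -0.05, -0.03 and -0.39 without unchallenged lung 1, unchallenged lung 6 and the low-UMI cluster) and Fzd6 (0.18 and 0.22 without lung metastasis 5 and unchallenged lung 5). Over all libraries left out in turn, the ranges in fibroblast-like cells were -0.94 to 1.97 for Sfrp4 (primary tumor), -0.39 to 0.72 for Fzd1, -0.64 to 0.15 for Dkk3 and -0.53 to 0.68 for Fzd2 (lung metastasis), -0.26 to 0.46 for Fzd6 in endothelial-like cells, and -0.54 to 0.12 for Wnt11, -0.05 to 0.49 for Wif1 and -0.36 to 0.22 for Fzd6 in ciliated-like cells.

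Depth limits what was tested: 23 of the 43 genes in fibroblast-like and 36 in endothelial-like cells were too low to test. Under another linear algebra kernel each named subcluster kept at least 97.9% of its cells, and the one led by Lrrc15 kept 50.2%.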
